A study of Mus musculus with 2 samples.

Results

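Histone acetylation is set by enzymes of opposing action. Acetyltransferases add acetyl groups to lysine residues of histones, while histone deacetylases, which use zinc, and sirtuins, which use NAD, remove them. Corepressors such as NCOR1, SIN3, CoREST and the MTA proteins hold deacetylases in complexes at genes, and NCOA coactivators bring acetyltransferases to nuclear receptors. In blood progenitors this balance takes part in the choice between stem cell maintenance and differentiation. PAD4, encoded by Padi4, acts on histones in another way, by turning arginine residues into citrulline.

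The 35 genes described here were taken by name: 11 histone deacetylases, 7 sirtuins, 8 acetyltransferases, 3 NCOA coactivators and 6 corepressors. All 35 were found among the probes of the array, and all 35 had at least 1 probe well above background on both arrays, out of 17021 genes measured in this way. Hdac7 stands under the older name Hdac7a in the files and was matched through its transcript accession. The names Gcn5l2, Pcaf, Myst2, Myst3 and Myst4 are those of the array and correspond to Kat2a, Kat2b, Kat7, Kat6a and Kat6b. Of the 71 probes of these genes, 63 were measured, that is, well above background on both arrays.

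RNA came from LSK cells, bone marrow cells without lineage markers that carry Sca-1 and c-Kit and include the blood stem cells. The labels give 1 array of cells from PAD4-deficient mice (PAD4-/-) and 1 array of cells from wild-type (WT) mice, both of strain C57BL/6. No source used here gives the age or sex of the mice, how many were pooled, or which part of Padi4 was deleted. With 1 array per genotype, no difference has a replicate check and no test between the genotypes could be made. Differences are given as log2 of PAD4-deficient over WT, after each array was scaled to its own 75th percentile. The sign ± gives the scanner error of the probe, which does not cover the variation between mice. Signals are given before this scaling unless stated. A gene with a slightly lower signal on the PAD4-deficient array, such as Hdac2 or Mta1, can therefore have a difference above 0.

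The 75th percentile of signals was 786 on the PAD4-deficient array and 814 on the WT array, and 64.1% and 63.9% of their probes were well above background. The arrays shared a slide and a scan. Padi4 had a signal of 2670 on the PAD4-deficient array and 12879 on the WT array at its brightest probe, and all 3 of its probes were lower in the PAD4-deficient sample. The gate markers Kit (9451 in PAD4-deficient and 9339 in WT cells) and Ly6a, which encodes Sca-1 (2312 in PAD4-deficient and 2637 in WT cells), were well above background on both arrays. For Xist, an RNA of female cells, 4 probes were well above background in the PAD4-deficient sample and 0 in the WT sample, a difference of at least 951-fold. Ddx3y, a Y-linked gene, had a signal of 1297 on the PAD4-deficient array and 3455 on the WT array. Eif2s3y, also Y-linked, had 1076 and 2611, and both genes were well above background on both arrays. The PAD4-deficient sample thus gave signal for Xist and for Y-linked genes, and the WT sample for the Y-linked genes only. Genotype and the sex-linked transcripts thus differed between the same 2 samples, and their effects on a single gene cannot be told apart.

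Most histone acetylation genes, like most measured genes, differed little between the genotypes. None of the 35 was 1.5-fold different, against 4.75% of all measured genes. At a lower threshold, a log2 difference of 0.32 in either direction, Hdac11, Hdac5 and Sirt3 were lower in PAD4-deficient cells, 3 of 35 genes, against a background of 8.05% of all measured genes. Hdac9 alone was higher by that much, 1 of 35, against 8.86%. The share of lower genes was thus near its background and the share of higher genes below it. In a set of 35, these counts are too small to set the genes apart from the background. The median difference of the 35 genes was -0.05, with 21 below 0 and 14 above 0, and that of all measured genes was 0.02, with 45.0% below 0.

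The spread among the 35 genes was 0.20 (SD of the log2 difference), against 0.31 among all measured genes. Of the 35, 28 lay within 0.2 of 0, and 65.5% of all measured genes did. Only 7 of the 35 (20.0%) differed by more than their own scanner error, against 30.4% of all measured genes, and Hdac5, Hdac9 and Hdac11 were the 3 that differed by more than 2 such errors, which 8.09% of all measured genes did. That error was nearly the same for all 35 genes, from 0.20 to 0.24, so passing it was close to passing a fixed fold. It was larger than 0.08, the spread of a difference between repeated spots. The 35 genes were also brighter than most. Their median signal was 2099 in PAD4-deficient and 2276 in WT cells, against 707 and 724 for all measured genes, and the part of signal strength in the narrower spread was not tested.

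**Figure D1:**
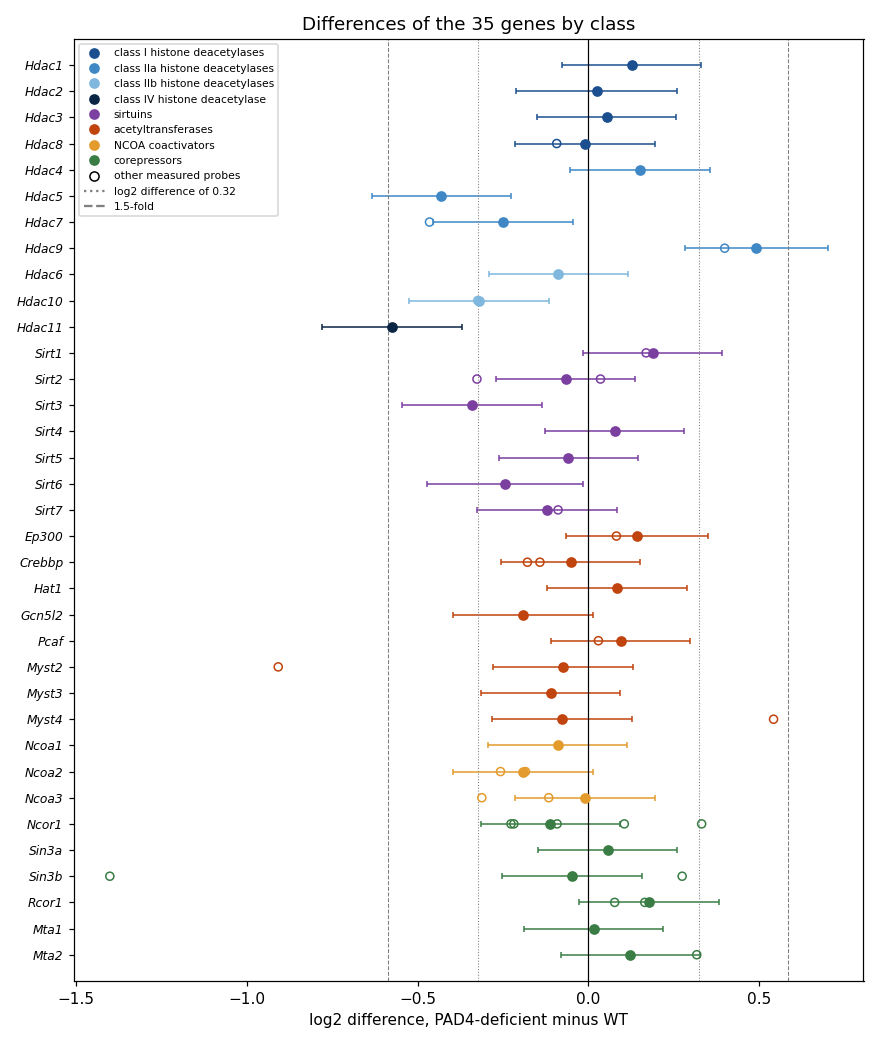
Log2 difference (PAD4-deficient minus WT) of each of the 35 genes, coloured by class; filled points are the brightest measured probe with its scanner error, open circles the other measured probes, and the dotted and dashed lines mark log2 differences of 0.32 and of 1.5-fold. No filled point lies past the dashed lines; Hdac11 (-0.57) and Hdac9 (0.49) lie farthest from 0, and open circles of Sin3b and Myst2 lie far below their filled points.

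**Figure D2:**
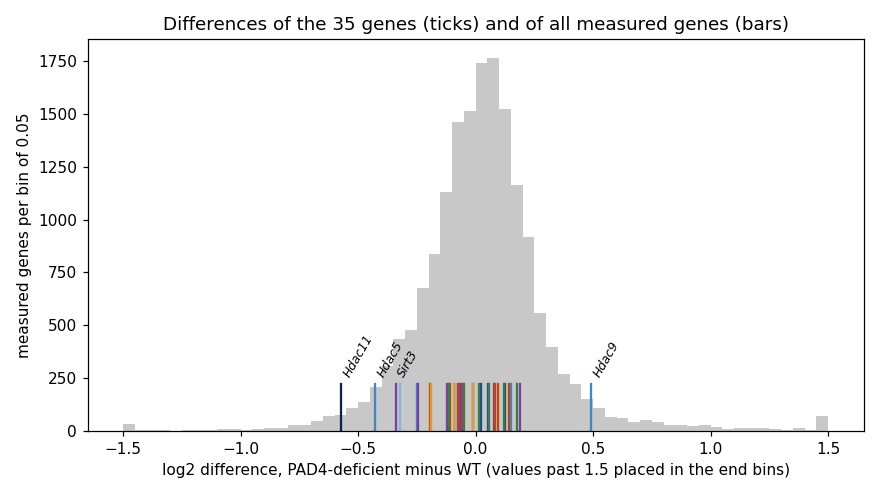
Histogram of the log2 difference (PAD4-deficient minus WT) of the 17021 measured genes in grey, with a coloured tick for each of the 35 genes (colours by class as in the plot of differences by class). The ticks lie between -0.57 and 0.49, and the 4 named genes are those past 0.32 in size.

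Class I holds HDAC1, HDAC2 and HDAC3, which work in the nucleus within large corepressor complexes, and HDAC8, which does not need such a complex for its activity. The 4 class I genes ranged from -0.01 to 0.13, a narrower range than that of the 4 class IIa genes (-0.43 to 0.49). Hdac1, the shared catalytic subunit of the SIN3, NuRD and CoREST complexes, had a signal of 7651 in PAD4-deficient and 7258 in WT cells. Its difference of 0.13 ± 0.20 lay within the scanner error and came from 1 probe (mm8 chromosome 4, 129018567 to 129018638, minus strand). Hdac2, its close paralog, had signals of 81.7 and 83.2 at its measured probe (0.02 ± 0.24), in PAD4-deficient and WT cells. Hdac3, the catalytic subunit of the NCOR complexes, had signals of 2322 in PAD4-deficient and 2317 in WT cells (0.05 ± 0.20). Hdac8, an X-linked gene, had signals of 435 in PAD4-deficient and 453 in WT cells (-0.01 ± 0.20), with -0.09 at its second probe. All 4 class I genes thus kept within their scanner error.

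Classes IIa, IIb and IV held the largest differences of the deacetylases, in both directions. These 7 genes ranged from -0.57 to 0.49, with 5 below 0 and a median of -0.25. Class IIa enzymes shuttle between nucleus and cytoplasm and bind MEF2 transcription factors. Hdac5, of class IIa, had a signal of 5279 in PAD4-deficient and 7363 in WT cells, a difference of -0.43 ± 0.20, or 74.2% of the WT level (1 probe, mm8 chromosome 11, 102011844 to 102011898, minus strand). A share of 4.04% of all measured genes had a lower difference than Hdac5. Hdac7, another class IIa gene, had signals of 5163 in PAD4-deficient and 6354 in WT cells at its brightest probe (-0.25 ± 0.20) and of 1054 and 1507 at its second probe (-0.47 ± 0.20). Both Hdac7 probes were lower in PAD4-deficient cells, the second past the threshold of 0.32. Hdac4, also of class IIa, was near the WT value, with 1005 in PAD4-deficient and 937 in WT cells (0.15 ± 0.20).

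Hdac9 ran the other way from Hdac5 and Hdac7. Its brightest probe had a signal of 195 in PAD4-deficient and 144 in WT cells, a difference of 0.49 ± 0.21, and 3.98% of all measured genes had a higher one. The second measured probe gave 0.40 ± 0.21, with 159 in PAD4-deficient and 125 in WT cells. These 2 probes were designed on a RefSeq transcript and lie on the minus strand of mm8 chromosome 12, at 34956889 to 34956948 and at 34974639 to 34974698. The other 2 Hdac9 probes were designed on a KIAA cDNA, lie about 321 and 324 kb from the brightest one in the 3′ direction of that strand, and were not well above background on either array, with signals of 3.91 and 3.76 in PAD4-deficient cells and 6.82 and 3.67 in WT cells. Only the 5′ pair of probes thus gave a measured value. As background, Hdac9 also makes a shorter product without the catalytic domain, known as MITR or HDRP. Which transcript the measured signal came from was not tested.

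Class IIb and class IV genes were all below 0. Hdac10, a cytoplasmic class IIb enzyme that acts on polyamines, had 5149 in PAD4-deficient and 6654 in WT cells at its brightest probe (-0.32 ± 0.20) and 2451 and 3176 at its second (-0.32 ± 0.20). The probes of Hdac10 thus gave like values, the brightest just inside the threshold (-0.3202 against 0.3219). Hdac6, the X-linked tubulin deacetylase of class IIb, had 1985 in PAD4-deficient and 2184 in WT cells (-0.09 ± 0.20). Hdac11, the single class IV member, had the lowest difference of the 35 genes. Its signal was 283 in PAD4-deficient and 436 in WT cells, a difference of -0.57 ± 0.21 and 67.2% of the WT level (1 probe, mm8 chromosome 6, 91139595 to 91139654, plus strand). Of all measured genes 1.95% had a lower difference. As background, Hdac11 removes long fatty acyl groups from lysine and has been described in mouse myeloid cells as a negative regulator of Il10.

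**Figure D3:**
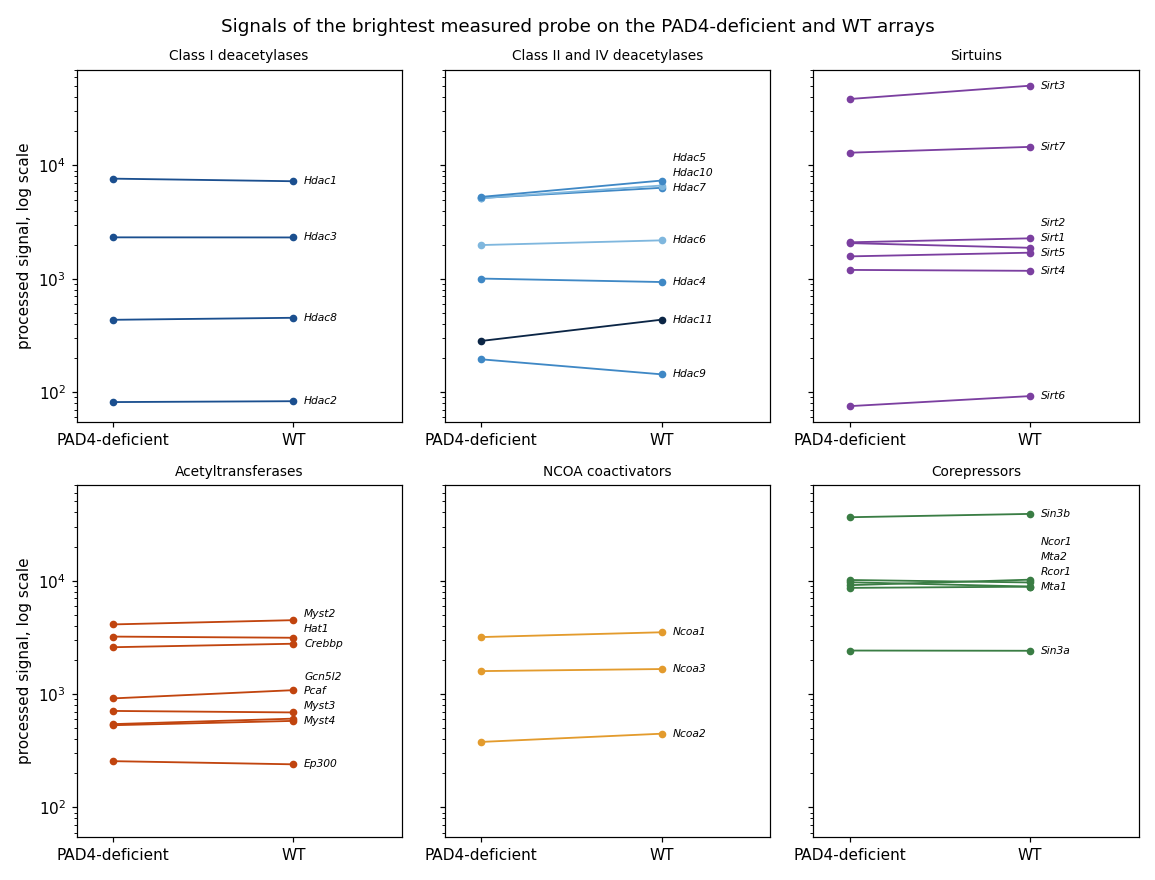
Processed signal (log scale, before scaling between arrays) of the brightest measured probe of each gene on the PAD4-deficient array at the left and the WT array at the right, 1 line per gene, in 6 panels by class. Levels of different genes come from different probes and are not to be compared; the lines of Hdac11 (283 against 436) and Hdac5 (5279 against 7363) slope most in one direction and that of Hdac9 (195 against 144) in the other, and the class I lines are nearly flat.

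The sirtuins had a median of -0.07, with 5 of 7 below 0. Sirt3, the main deacetylase of mitochondria, had a signal of 38566 in PAD4-deficient and 50562 in WT cells, a difference of -0.34 ± 0.20 or 79.0% of the WT level (1 probe, mm8 chromosome 7, 140715026 to 140715085, minus strand). It was the only sirtuin past 0.32 in size by its brightest probe. Sirt1, the nuclear sirtuin that deacetylates p53 and histones, was highest, with 2066 in PAD4-deficient and 1878 in WT cells (0.19 ± 0.20) and 0.17 at its second probe. Sirt6, a chromatin-bound sirtuin, was dim, with 75.3 in PAD4-deficient and 92.3 in WT cells (-0.24 ± 0.23). Sirt7, of the nucleolus, had 12957 in PAD4-deficient and 14590 in WT cells (-0.12 ± 0.20), with -0.09 at its second probe. Sirt2, the cytoplasmic sirtuin, gave -0.07, 0.04 and -0.33 at its 3 probes, in order of signal, so the probes did not share a direction. The mitochondrial sirtuins Sirt4 (0.08 ± 0.20) and Sirt5 (-0.06 ± 0.20) stayed within their scanner error, so Sirt3 differed from WT more than the other mitochondrial members did, a contrast of single probes without a test.

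The 4 genes past the threshold of 0.32 are represented by the windows where their transcripts start, which let the starts of the lower genes be set beside that of Hdac9. Each window runs from 250 bases before to 50 bases after the RefSeq start site farthest upstream (build GRCm38.p6), written 5′ to 3′ on the strand of the gene. Capitals mark CACGTG, the E-box that MYC binds; CTTTGA, a core of the TCF and LEF site, was searched too, each on either strand, and no overlap between the motifs arose. The Hdac11 window is chr6:91156565-91156864 on the plus strand, and the windows of Hdac5 (chr11:102230123-102230422), Sirt3 (chr7:140882260-140882559) and Hdac9 (chr12:34917046-34917345) are on the minus strand.
Hdac11: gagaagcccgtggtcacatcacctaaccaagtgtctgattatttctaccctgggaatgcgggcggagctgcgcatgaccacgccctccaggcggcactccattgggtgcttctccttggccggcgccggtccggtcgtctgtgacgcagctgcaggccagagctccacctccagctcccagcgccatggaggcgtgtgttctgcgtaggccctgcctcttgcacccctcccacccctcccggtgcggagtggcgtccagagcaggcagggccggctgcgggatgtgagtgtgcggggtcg
Hdac5: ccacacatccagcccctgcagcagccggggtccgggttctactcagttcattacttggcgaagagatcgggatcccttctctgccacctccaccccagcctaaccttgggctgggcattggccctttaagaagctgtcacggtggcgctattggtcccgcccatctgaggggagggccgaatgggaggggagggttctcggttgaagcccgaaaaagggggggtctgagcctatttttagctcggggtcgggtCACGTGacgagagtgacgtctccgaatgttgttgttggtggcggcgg
Sirt3: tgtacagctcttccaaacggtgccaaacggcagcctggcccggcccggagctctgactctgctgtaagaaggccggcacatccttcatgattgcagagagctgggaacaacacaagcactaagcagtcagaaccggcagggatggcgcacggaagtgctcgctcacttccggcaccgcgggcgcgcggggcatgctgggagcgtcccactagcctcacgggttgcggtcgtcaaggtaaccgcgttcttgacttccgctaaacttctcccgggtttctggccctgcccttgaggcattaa
Hdac9: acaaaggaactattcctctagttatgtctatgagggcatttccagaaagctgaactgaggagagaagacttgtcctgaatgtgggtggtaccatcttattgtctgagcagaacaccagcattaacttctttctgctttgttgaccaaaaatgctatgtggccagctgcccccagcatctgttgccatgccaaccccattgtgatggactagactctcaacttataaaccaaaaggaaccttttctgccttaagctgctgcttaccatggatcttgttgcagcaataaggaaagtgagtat

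The windows of the 3 lower genes held 22 (Hdac11), 18 (Hdac5) and 23 CpG (Sirt3), near the median of 20 for measured genes with a window. The window of Hdac9 held 0. Such a window without CpG was found for 1.15% of the measured genes that had one. Sirt3 and Hdac9 each have a further start site that is not shown. Windows were at hand for 29 of the 35 genes, with a median of 20 CpG, equal to the median of 20 over the 10976 measured genes with a window. Of the 29 windows, 3 held CACGTG, those of Hdac5, Sirt1 and Hat1, which is 10.3%, against 9.96% of the measured genes with a window. CTTTGA was found in the windows of Sirt7 and Pcaf, 6.90% against 12.5%. These matches describe the letters only, and neither motif was shared by the 3 lower genes.

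The acetyltransferases had a median of -0.06, with 5 of 8 below 0 and none past 0.32 in size by the brightest probe. Ep300 and Crebbp encode the paralogous coactivators p300 and CBP. Ep300 had a signal of 256 in PAD4-deficient and 240 in WT cells (0.14 ± 0.21), with 0.08 at its second measured probe. Crebbp had 2589 in PAD4-deficient and 2780 in WT cells (-0.05 ± 0.20), and its other 2 probes gave -0.18 and -0.14. The paralogs thus lay on opposite sides of 0, each within its scanner error. Gcn5l2 and Pcaf, the alternative acetyltransferases of the SAGA and ATAC complexes, also had opposite signs. Gcn5l2 had 915 in PAD4-deficient and 1082 in WT cells (-0.19 ± 0.20), and Pcaf had 710 in PAD4-deficient and 688 in WT cells (0.09 ± 0.20).

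Hat1, which acetylates newly made histone H4 before its deposition, had 3214 in PAD4-deficient and 3138 in WT cells (0.08 ± 0.20). The 3 MYST genes were slightly below 0 by their brightest probes; with the mean over probes Myst2 was at -0.49 and Myst4 at 0.23. Myst3, whose product MOZ is needed for blood stem cells in mice, had 543 in PAD4-deficient and 607 in WT cells (-0.11 ± 0.20). Myst2, or HBO1, had 4115 in PAD4-deficient and 4487 in WT cells at its brightest probe (-0.07 ± 0.20). Myst4, or MORF, had 531 in PAD4-deficient and 580 in WT cells (-0.08 ± 0.20). The NCOA coactivators were below 0 as well. Ncoa1 had -0.09 ± 0.20 and Ncoa3 -0.01 ± 0.20 at the brightest probe, and the other 2 Ncoa3 probes gave -0.12 and -0.31. Ncoa2 had 378 in PAD4-deficient and 447 in WT cells (-0.19 ± 0.20), and its 3 probes were all lower in PAD4-deficient cells, from -0.26 to -0.18.

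The corepressor scaffolds had a median of 0.04 (-0.02 with median scaling), with 4 of 6 above 0 and a range from -0.11 to 0.18. Rcor1, the CoREST scaffold that joins HDAC1 or HDAC2 to the demethylase KDM1A, was highest, with 9693 in PAD4-deficient and 8878 in WT cells (0.18 ± 0.20), and its 3 probes were all above 0, from 0.08 to 0.18. The NuRD subunits Mta1 and Mta2 had 8647 and 10148 in PAD4-deficient cells, against 8859 and 9650 in WT cells. Their differences of 0.02 and 0.12 lay within the scanner error. Sin3a, the scaffold of the SIN3 complex, had 2420 in PAD4-deficient and 2409 in WT cells (0.06 ± 0.20). Ncor1, which activates HDAC3, had 9133 in PAD4-deficient and 10215 in WT cells (-0.11 ± 0.20).

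The largest differences in this gene set came from probes other than the brightest. Sin3b, the paralog of Sin3a, had a signal of 36313 in PAD4-deficient and 38864 in WT cells at its brightest probe (-0.05 ± 0.20). A second probe gave 3276 and 2805 (0.27 ± 0.20), and the dimmest, designed on the RefSeq transcript, gave 101 in PAD4-deficient and 276 in WT cells (-1.40 ± 0.21), or 37.9% of the WT level. The dimmest probe (mm8 chromosome 8, 75649936 to 75649995) lies between the brightest probe and the second one, which are 18.3 kb apart. The Sin3b probes thus gave values from -1.40 to 0.27, and no single value describes the gene.

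Myst2 had a dim second probe with 68.1 in PAD4-deficient and 132 in WT cells (-0.91 ± 0.22). It was designed on a cDNA clone that the file calls unclassifiable and lies about 27.9 kb from the brightest probe on mm8 chromosome 11. Myst4 had a dim second probe with 29.3 in PAD4-deficient and 20.8 in WT cells (0.54 ± 0.39), opposite in sign to its brightest one. Of the 18 genes with 2 or more measured probes, 14 had all of them on the same side of 0, and in 3, Sin3b, Myst2 and Myst4, the probes differed from each other by more than 1.5-fold. Among the 7 Ncor1 probes, 3 have coordinates that run on the plus strand of mm8 chromosome 11 while the 4 others run on the minus strand. These 3 were dim, at or below 60.5 in PAD4-deficient and 72.9 in WT cells, and need not report Ncor1 itself.

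**Figure D4:**
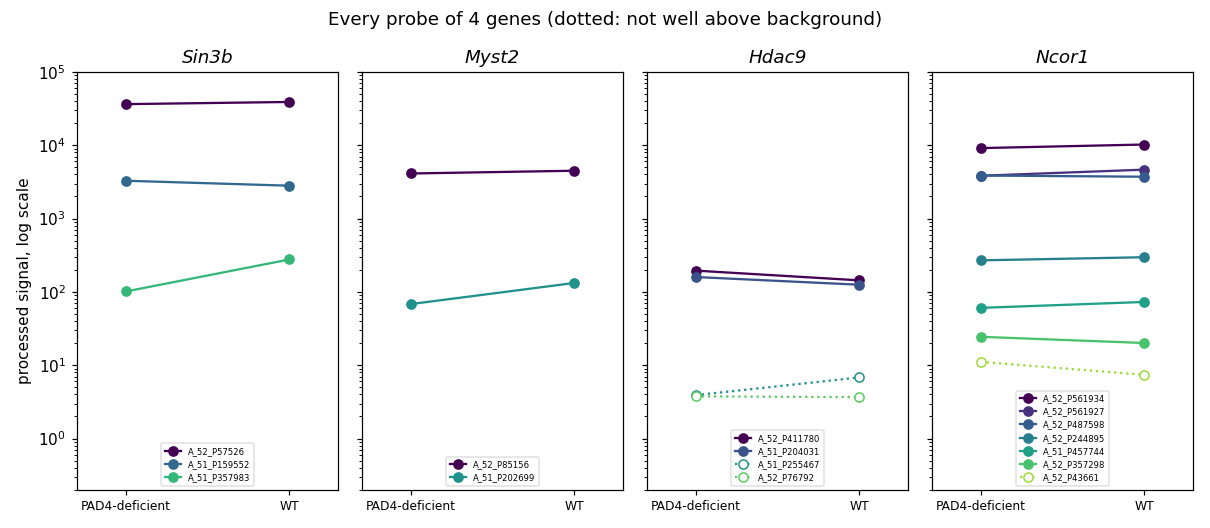
Processed signal (log scale) of each probe of Sin3b, Myst2, Hdac9 and Ncor1 on the PAD4-deficient array at the left and the WT array at the right; dotted lines with open points are probes not well above background. The lowest Sin3b probe (101 against 276) and the second Myst2 probe (68.1 against 132) slope unlike the brighter probes of the same gene, and 2 Hdac9 probes stay below 7.

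A further list held 56 partner subunits of these complexes, acetyl-lysine readers and enzymes of acetyl-CoA and NAD supply, of which 55 were measured. Their median was 0.00, with 26 below 0 and 29 above 0, and none was 1.5-fold different. At the threshold of 0.32, 3 were lower (background 8.05%) and 0 higher (8.86%), and these 3 are named here after their values were seen. Kat5, or TIP60, the acetyltransferase of the NuA4 complex, had 1285 in PAD4-deficient and 1920 in WT cells (-0.53 ± 0.20). Mbd3, a NuRD subunit, had 3346 in PAD4-deficient and 4381 in WT cells (-0.34 ± 0.20). Brpf3, a scaffold of MYST acetyltransferases, had 133 in PAD4-deficient and 172 in WT cells (-0.32 ± 0.21), with -0.64 at its second probe.

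Sorted by complex, an arrangement made after the values were seen, members and partners gave medians near 0 with single genes farther off. NuRD had a median of 0.06, with 11 of 13 genes above 0 (7 with median scaling, which lowers every difference by the same amount) and Mbd3 as its lowest. Of all 17021 measured genes, 9363 were above 0 without median scaling. The counts by complex rest on the brightest probe of each gene. At least 1 other measured probe of each of Chd3, Chd4, Rbbp4, Gatad2a and Gatad2b fell below 0, lowest at -0.40 for Gatad2b. The other probes of Mbd2 and Mta2 stayed above 0, at 0.35 and 0.32. The CoREST complex had 7 of 8 genes above 0 (3 with median scaling) and a median of 0.03, and Rcor2 was lowest at -0.17. The SIN3 complex was split, with 9 of 16 above 0 (7 with median scaling) and a median of 0.01. The NCOR complexes had a median of -0.12 and 4 of 6 genes below 0 (6 with median scaling), with Gps2 lowest at -0.17. The MYST complexes had 9 of 11 genes below 0 and a median of -0.05, with Brpf3 as the lowest and Jade3 as the highest, just inside the threshold (0.3185 against 0.3219). The NuA4 complex, which holds Kat5 as its lowest gene, had a median of 0.02 and 2 of 4 genes below 0. The SAGA complex had a median of -0.04, with 5 of 8 measured genes below 0 (6 with median scaling), and the bromodomain readers had a median of 0.00, with 2 of 5 below 0 (4 with median scaling). Nampt, the rate-limiting enzyme of the NAD salvage that feeds sirtuins, had 1465 in PAD4-deficient and 1231 in WT cells (0.30 ± 0.20).

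Transcripts of committed blood lineages also differed between these samples. Of all 17021 measured genes, 490 were at least 1.5-fold higher in PAD4-deficient cells and 318 at least 1.5-fold lower. In a bulk sample, fewer cells of a type and less RNA per cell cannot be told apart. Of the 10 B and plasma cell markers, 10 were measured and 7 were at least 1.5-fold higher in PAD4-deficient cells, with a summed signal, in units of the 75th percentile of its array, of 24.0 in PAD4-deficient and 14.3 in WT cells. The sum of 10 neutrophil markers was 229 in PAD4-deficient and 151 in WT cells, mostly from Mpo, and 3 were 1.5-fold higher. For the 9 erythroid markers with a probe it was 7.93 in PAD4-deficient and 6.73 in WT cells, with 5 of 7 measured genes 1.5-fold higher. That sum came mostly from Hba-a1, itself at -0.22. For 8 mast cell and basophil markers it was 4.90 in PAD4-deficient and 2.65 in WT cells, and 5 of 6 measured were 1.5-fold higher. For 12 monocyte, macrophage and dendritic cell markers it was 87.4 in PAD4-deficient and 75.3 in WT cells, with 7 of 12 higher by 1.5-fold. That sum came mostly from Lyz2, itself at 0.06. The 8 megakaryocyte markers summed to 27.0 in PAD4-deficient and 24.2 in WT cells, and 3 were 1.5-fold higher.

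The T and NK cell list was mixed. Its 10 markers, 7 of them measured, summed to 24.4 in PAD4-deficient and 25.3 in WT cells, a sum carried mostly by Nkg7, with Cd3g above background on neither array. Its median difference was 0.33, with 2 genes 1.5-fold higher (Tcf7 at 0.96 and Il2rb at 0.91) and 1 lower (Prf1 at -0.60), and Cd8a, well above background in PAD4-deficient cells only, was at least 4.42-fold higher there. The 8 stromal and endothelial markers, 5 of them measured, summed to 1.67 in PAD4-deficient and 1.75 in WT cells. Of the 5, 4 were below 0, 2 of them at least 1.5-fold lower (Cxcl12 and Bgn), and Col1a2 was above 0 (0.50). Col1a1, Cdh5 and Lepr were above background on neither array. The 10 stem and progenitor markers summed to 169 in PAD4-deficient and 184 in WT cells. Of these, 6 were below 0, with Flt3 lowest at -0.67, and 4 above 0, with Slamf1 highest at 0.47. The part of these cell types in the differences of Hdac5, Hdac9, Hdac11 and Sirt3 was not tested.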

How the data were processed

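Total RNA of LSK cells was hybridised to 1-colour Agilent arrays of design 014868, which were read with Feature Extraction 9.5.3.1, per the file headers, with probe coordinates on build mm8. Version 9.5 of that software stands in the submitters' processing notes. Deposited scanner files hold spot intensity after background subtraction and detrending by the authors, with an error per spot and flags, per the file headers. A value table of log2 values was deposited too: in each column log2 of the scanner's signal minus a constant (9.62 for PAD4-deficient, 9.67 for WT) gave the table within 0.01 for at least 99.6% of probes, so its scale, direction and lack of gene centring are settled. The column medians are -3.53 and -3.59.

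The value of a probe was its mean log2 signal over unflagged spots minus the array's 75th percentile over non-control probes. A probe was measured when well above background on both arrays, and a gene took its brightest measured probe. Of 41174 probes, 41170 had an unflagged spot on both arrays. Names came from the RefSeq table of GRCm38.p6 (24371 probes by accession, 6301 by symbol, 2426 by synonym, 8072 as in the files), promoter windows from RefSeq on GRCm38.p6. All 35 genes are named, with full values for Hdac1, the 3 largest differences each way and genes whose probes disagreed by 1.5-fold. The members and lists were chosen with earlier results of these data known.

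With 1 array per group no test was made. Alternatives tried were looser filters on signal, other folds, an average over a gene's probes, the deposited table, loess (window 0.3), quantile and median scaling, the percentile of detected probes, and normexp (offset 50). The steps were tested on simulated data. The number of arrays limits the precision. Python 3.11.15, numpy 2.4.6, pandas 2.3.3, statsmodels 0.14.6, R 4.3.3 and limma 3.58.1 were used.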

Additional observations from a re-analysis of the deposited data

How the results depend on the processing

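No paired analysis was possible because each genotype had 1 array, and no array could be left out. The number of genes at least 1.5-fold different was 0, became 1 (Hdac11) with median scaling and 4 at a threshold of 0.32 (log2), and was 0 under the other alternatives. The number lower by at least 0.32 was 3 and became 7 with the mean over probes (Hdac7, Hdac10, Myst2 and Sin3b entered) and was 3 or 4 otherwise; the number higher by at least 0.32 was 1 throughout (both counts by direction were chosen after seeing the data). The medians of the 5 classes, of the 35 genes and of the partner list moved by less than 0.08, the spread of a difference between repeated spots, under every alternative. That bound is larger than most of these medians, so a median could change sign within it. Sign changes arose for the deacetylases (0.01 with normexp), the corepressors (-0.02 with median scaling) and the partner list (-0.05 with median scaling). Of the 35 genes, 28 kept the sign of their difference under all 9 alternatives of processing, and the 7 others had main differences of at most 0.08 in size. The looser filters on signal left the values of all 35 genes unchanged, and the deposited table shifted values by about -0.001. These alternatives could therefore not change a sign here. Hdac11 ranged from -0.63 to -0.47, Hdac5 from -0.49 to -0.42, Sirt3 from -0.40 to -0.33, Hdac9 from 0.37 to 0.50 and Hdac1 from 0.07 to 0.14. With the mean over probes Sin3b was -0.39, Myst2 -0.49 and Myst4 0.23. With normexp the dimmest Sin3b probe gave -0.99 and the second Myst2 probe -0.50. Signal over background limits Hdac2, Sirt6 and the dim probes.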
